A study of Homo sapiens with 17 samples.

Results

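The neural lineage regulators PAX6, SOX1, SIX3, LHX2, HES5, NEUROG2, POU3F2 and SOX11 were followed through 17 CUT&Tag libraries of H1, an established line of human pluripotent stem cells. The 8 genes were chosen by name, out of 20037 protein-coding genes of the RefSeq table for GRCh38.p14, and every called summit from 20 kb before to 20 kb after each gene was collected. In CUT&Tag an antibody bound to chromatin directs the transposase Tn5 to cut the DNA beside it, and a summit is the base of highest signal in a called peak. For each of the enhancer-associated histone modifications H3K4me1 and H3K27ac there were 4 libraries from cells with an shRNA against the nuclear RNA-binding protein HNRNPU (shHNRNPU#1 and shHNRNPU#2, 2 repeats each) and 2 from cells with an shRNA against luciferase (shLUC). Binding of HNRNPU was measured in 2 libraries of cells without an shRNA, and POLIIS2P, as the labels name the antibody, in 1 shHNRNPU#1 and 2 shLUC libraries. The shRNAs were delivered by virus and infected cells were selected with puromycin. Nothing in the labels says that repeats came from separate cultures, so spreads and p-values measure only the spread between these libraries, which may be technical. H3K27ac and HNRNPU antibodies are listed in the protocol, while H3K4me1 and POLIIS2P are known only from titles and, for H3K4me1, the design text.

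PAX6, SIX3, LHX2 and POU3F2 are homeodomain transcription factors of the early neural plate, eye field and forebrain, with PAX6 also carrying a paired domain and POU3F2 a POU domain. SOX1 is a SOXB1 factor of neural progenitors and SOX11 a SOXC factor of differentiating neurons, HES5 is a transcriptional repressor downstream of Notch, and NEUROG2 is a proneural basic helix-loop-helix factor that starts neuronal differentiation. In pluripotent cells such genes are known as developmental regulators kept silent or low until lineage entry. H3K4me1 marks both primed and active enhancers, whereas H3K27ac marks active enhancers and promoters, so the pair of marks is commonly used to tell these states apart.

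Titles and the names inside the deposited lists disagreed on the antibody of the 4 shLUC histone libraries, each giving the other mark. The names inside the lists were used here, and values as titled are given beside the comparisons. The H3K4me1 lists held 147145 to 214333 summits and the H3K27ac lists 40487 to 90914. The HNRNPU lists held 34649 and 35526 and the POLIIS2P lists 79949 to 87456, and read depth is unknown. The H3K27ac shHNRNPU#1 repeat 2 list was the shortest and had a summit at only 1 of the 8 genes, against 5 or 6 in the other H3K27ac libraries. Among pluripotency markers, 6 of 6 genes matched by symbol, of 7 listed (POU5F1, NANOG, LIN28A, DNMT3B, L1TD1 and SOX2) had an H3K27ac summit in all 6 libraries. None of 5 mesendoderm genes did, and 3 of 5 neuronal genes (RBFOX3, SYN1 and SLC17A7) did, where 69.7% of all protein-coding genes did. At the HNRNPU gene every library had 3 to 12 summits, and since neither transcript nor protein was measured, the extent of knockdown was not checked.

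Promoters of 6 of the 8 genes were in the RefSeq promoter table (build GRCh38.p14), as 250 bases before and 50 after each start. Those of PAX6 (outermost of 9 starts), POU3F2 and LHX2 are printed because summits of H3K4me1, HNRNPU and POLIIS2P fell within them. The promoters of HES5 and NEUROG2 held no summit of any library, and of these that of HES5 was picked for printing. Each printed stretch is given from 250 bases before the start to the base before it, 5′ to 3′ on the gene's strand. Capitals mark 21 bases around the HNRNPU repeat 1 summit in PAX6 and LHX2 and around the POLIIS2P shLUC repeat 2 summit in POU3F2. In HES5 they mark the match to the SOX/TCF core.
PAX6, chr11:31817962-31818211, minus strand: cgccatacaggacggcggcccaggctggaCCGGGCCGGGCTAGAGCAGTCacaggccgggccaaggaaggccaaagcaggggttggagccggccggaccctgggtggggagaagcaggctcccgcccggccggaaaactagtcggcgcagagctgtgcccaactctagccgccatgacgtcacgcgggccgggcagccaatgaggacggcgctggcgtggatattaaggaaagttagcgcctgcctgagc
POU3F2, chr6:98834324-98834573, plus strand: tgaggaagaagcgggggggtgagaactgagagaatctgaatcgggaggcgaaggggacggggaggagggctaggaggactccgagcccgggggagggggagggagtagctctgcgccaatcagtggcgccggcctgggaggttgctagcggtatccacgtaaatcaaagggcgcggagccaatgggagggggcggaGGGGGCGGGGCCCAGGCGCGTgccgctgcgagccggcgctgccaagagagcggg
LHX2, chr9:124011518-124011767, plus strand: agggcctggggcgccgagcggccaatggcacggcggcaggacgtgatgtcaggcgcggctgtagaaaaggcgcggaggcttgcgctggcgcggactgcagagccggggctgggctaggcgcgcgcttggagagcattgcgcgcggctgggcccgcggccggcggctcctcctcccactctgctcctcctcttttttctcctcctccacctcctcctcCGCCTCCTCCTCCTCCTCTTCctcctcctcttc
HES5, chr1:2530264-2530513, minus strand: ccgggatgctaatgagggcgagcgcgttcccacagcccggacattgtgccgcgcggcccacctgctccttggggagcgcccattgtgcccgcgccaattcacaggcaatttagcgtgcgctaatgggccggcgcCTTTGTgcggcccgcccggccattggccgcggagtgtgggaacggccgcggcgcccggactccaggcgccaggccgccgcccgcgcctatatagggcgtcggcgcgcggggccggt

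All 4 printed stretches were GC-rich, with 68.4% G and C in PAX6, 69.2% in POU3F2, 70.4% in LHX2 and 72.8% in HES5. The promoters of NEUROG2 and SOX1, not printed, had 56.3% and 80.0% over 300 bases, where the median of all promoters was 58.7%. Over the full 300 bases the number of CG dinucleotides was 24 at PAX6, 24 at POU3F2, 30 at LHX2, 45 at HES5 and 37 at SOX1, against a median of 14.0 over all 35116 promoters. NEUROG2 stood at 10, below that median. Both strands were searched for exact matches to 4 motifs, so variants of a motif were not counted. The TATA box core (TATAAA), the homeodomain core (TAATTA) and the E-box (CACGTG) were in no promoter listed for these 6 genes, and 11.5%, 4.84% and 7.26% of all promoters held them. The SOX/TCF core (ACAAAG) was in the HES5 promoter, in some inner PAX6 promoters and in 16.1% of all promoters. A match is a description of letters and not of a bound site.

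To describe the enhancer marks, the strongest summit at each gene was expressed as its within-list percentile, the share of the library's summits with the same or a lower score. All 8 genes had H3K4me1 summits in all 6 libraries, as did 87.5% of all protein-coding genes. H3K27ac differed: HES5 had a summit in all 6 libraries, which held for 69.7% of all protein-coding genes. PAX6, POU3F2 and SOX11 had H3K27ac in 5 libraries, SOX1 in 4, LHX2 in 2, SIX3 in 1 and NEUROG2 in none. Without the H3K27ac shHNRNPU#1 repeat 2 library, 4 of the 8 genes (HES5, SOX11, POU3F2 and PAX6) and 75.3% of all genes had H3K27ac in every library. The median over the genes of the mean strongest percentile was 91.3 for H3K4me1, against 86.7 over all genes, and 37.3 for H3K27ac, against 75.3.

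**Figure D1:**
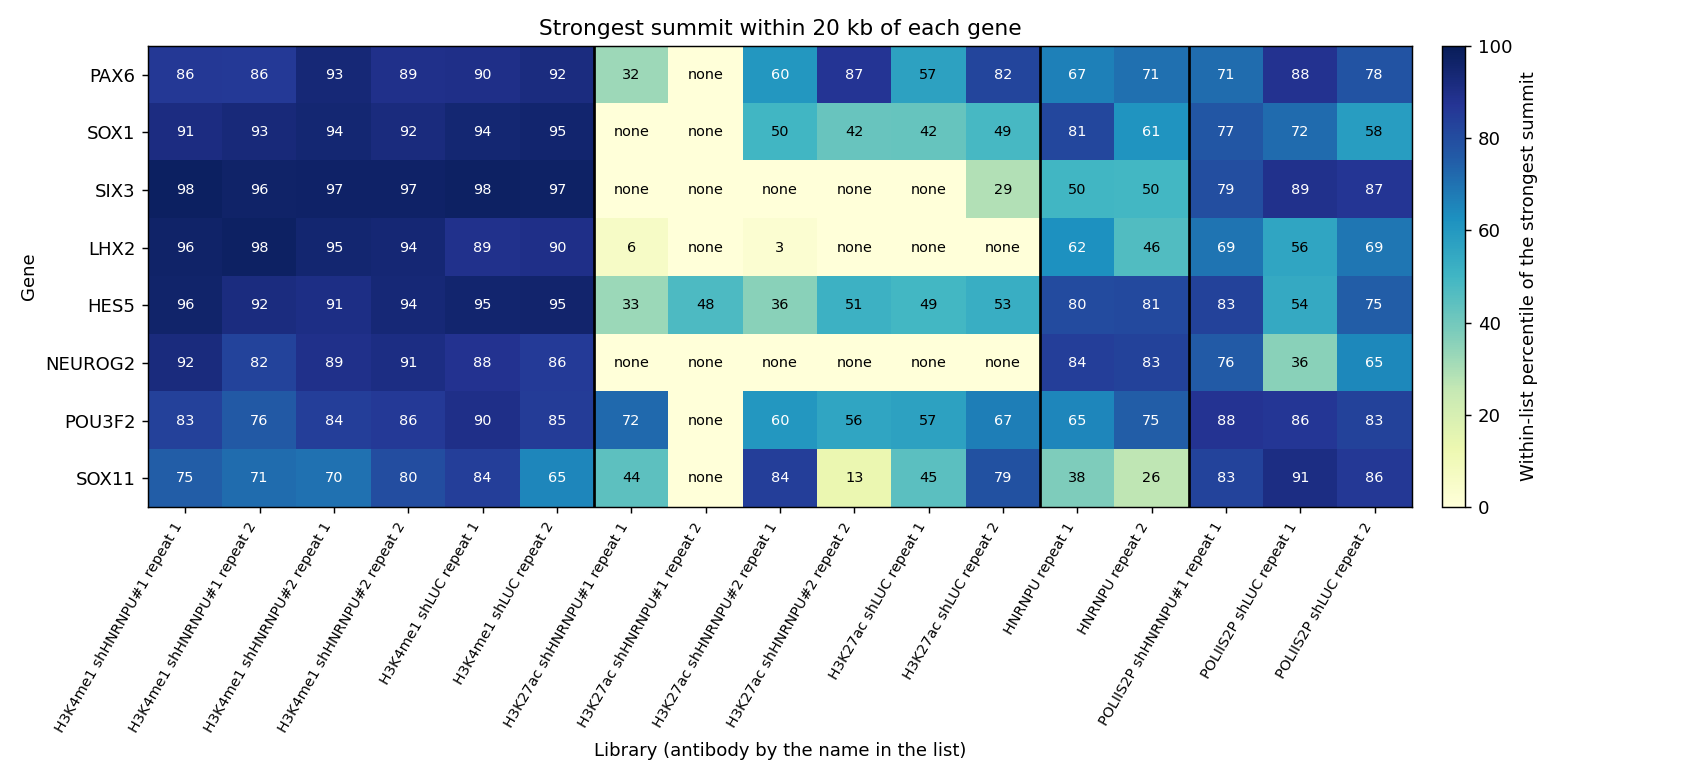
Heat map of the within-list percentile of the strongest summit within 20 kb of each of the 8 genes (rows) in each of the 17 libraries (columns, antibody by the name in the list), with black lines between antibodies and "none" where no summit was called. The H3K4me1 columns run from 65.2 to 97.8, whereas the H3K27ac columns hold no value at NEUROG2, a single value of 28.6 at SIX3 and at most 5.9 at LHX2.

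The same contrast was seen when every histone and POLIIS2P list was shortened to its 40000 strongest summits. Then 7 or 8 of the 8 genes had an H3K4me1 summit in each library, as did 66.2% to 68.1% of all genes. For H3K27ac it was 1 to 5 of the 8 genes, although 75.7% to 77.4% of all genes had one.

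SIX3 carried the densest H3K4me1. It had 11 to 20 summits a library, or a mean of 3.31 per 10 kb of its window, and 99.4% of protein-coding genes had a lower density. PAX6 followed with 14 to 22 summits and 2.73 per 10 kb, and POU3F2 with 8 to 13 summits and 2.41 per 10 kb. HES5, LHX2 and SOX1 lay close together at 2.29, 2.28 and 2.17 per 10 kb, and their ranges of 7 to 12, 11 to 16 and 8 to 11 summits belong to windows of different length. The other two genes were lower, with 5 to 7 summits at NEUROG2 (1.48 per 10 kb, above 76.2% of genes) and 3 to 8 at SOX11 (1.16 per 10 kb, above 64.6% of genes). The median over the 8 genes was 2.28 per 10 kb and that over all genes 0.825. Other lists also lay above all genes, so a dense H3K4me1 was not particular to these 8. The median was 2.20 over the pluripotency markers, 1.71 over the mesendoderm genes and 1.50 over the neuronal genes. Over a wider list of 45 neural genes it was 1.72.

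**Figure D2:**
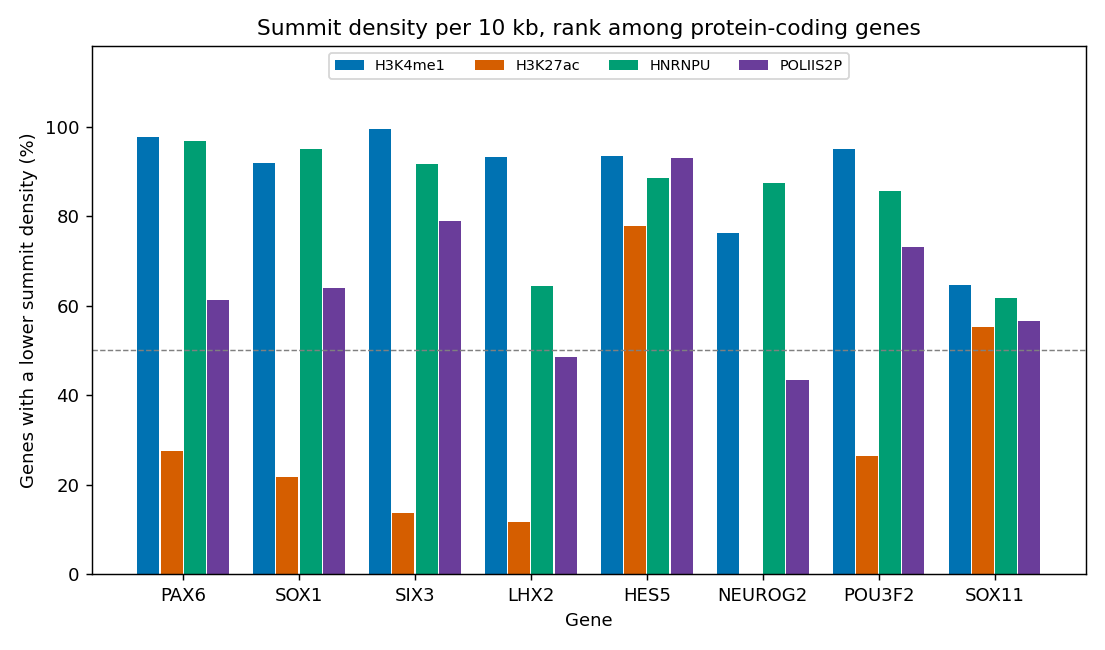
Bars give, for each gene and antibody, the percentage of 20037 protein-coding genes with a lower mean number of summits per 10 kb of window; the dashed line is at 50%. H3K4me1 bars stand at 64.6% to 99.4% for all 8 genes, H3K27ac bars at 0 (NEUROG2) to 27.5% in 6 of them, and at 77.8% and 55.2% in HES5 and SOX11.

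When summits of the 6 H3K4me1 libraries were chained at gaps of up to 250 bp, the 8 windows held 136 sites, of which 50 (36.8%) were present in all 6 libraries. Genome-wide 25.4% of sites were. PAX6 had 9 such sites of 29, LHX2 9 of 19, SIX3 8 of 22, POU3F2 7 of 15, and SOX1, HES5 and NEUROG2 5 each, of 15, 18 and 8. SOX11 had 2 of 10.

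The strongest H3K4me1 site of each gene was seldom at its start. That of SIX3 lay at chr2:44927130-44927137, 14568 bp below the gene, with percentiles of 97.8, 96.2, 96.8 and 96.7 in the shHNRNPU libraries and 97.6 and 97.0 in shLUC. SOX1 had its strongest site 12072 bp after its start at chr13:112079124-112079319, inside the lncRNA gene SOX1-OT, at 91.2 to 95.0 in the 6 libraries. Both sites varied by less than 5 percentiles over all libraries. The HES5 site lay 5333 bp before the start at chr1:2535575-2535618 (89.8 to 95.9) and the NEUROG2 site 7790 bp before it at chr4:112523945-112523995, inside the antisense gene NEUROG2-AS1 (69.6 to 91.9). Those of PAX6 and POU3F2 lay after the start, 5244 bp at chr11:31812642-31812792 inside PAX6 (73.9 to 93.4) and 7972 bp at chr6:98842524-98842568 (61.0 to 84.6). SOX11 was the weakest of the 8, with its strongest site 18459 bp below the gene at chr2:5673904-5673946 and values from 44.2 to 84.2. SIX3 and SOX11 were not in the promoter table, so their distances are counted from the lower gene end.

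**Figure D3:**
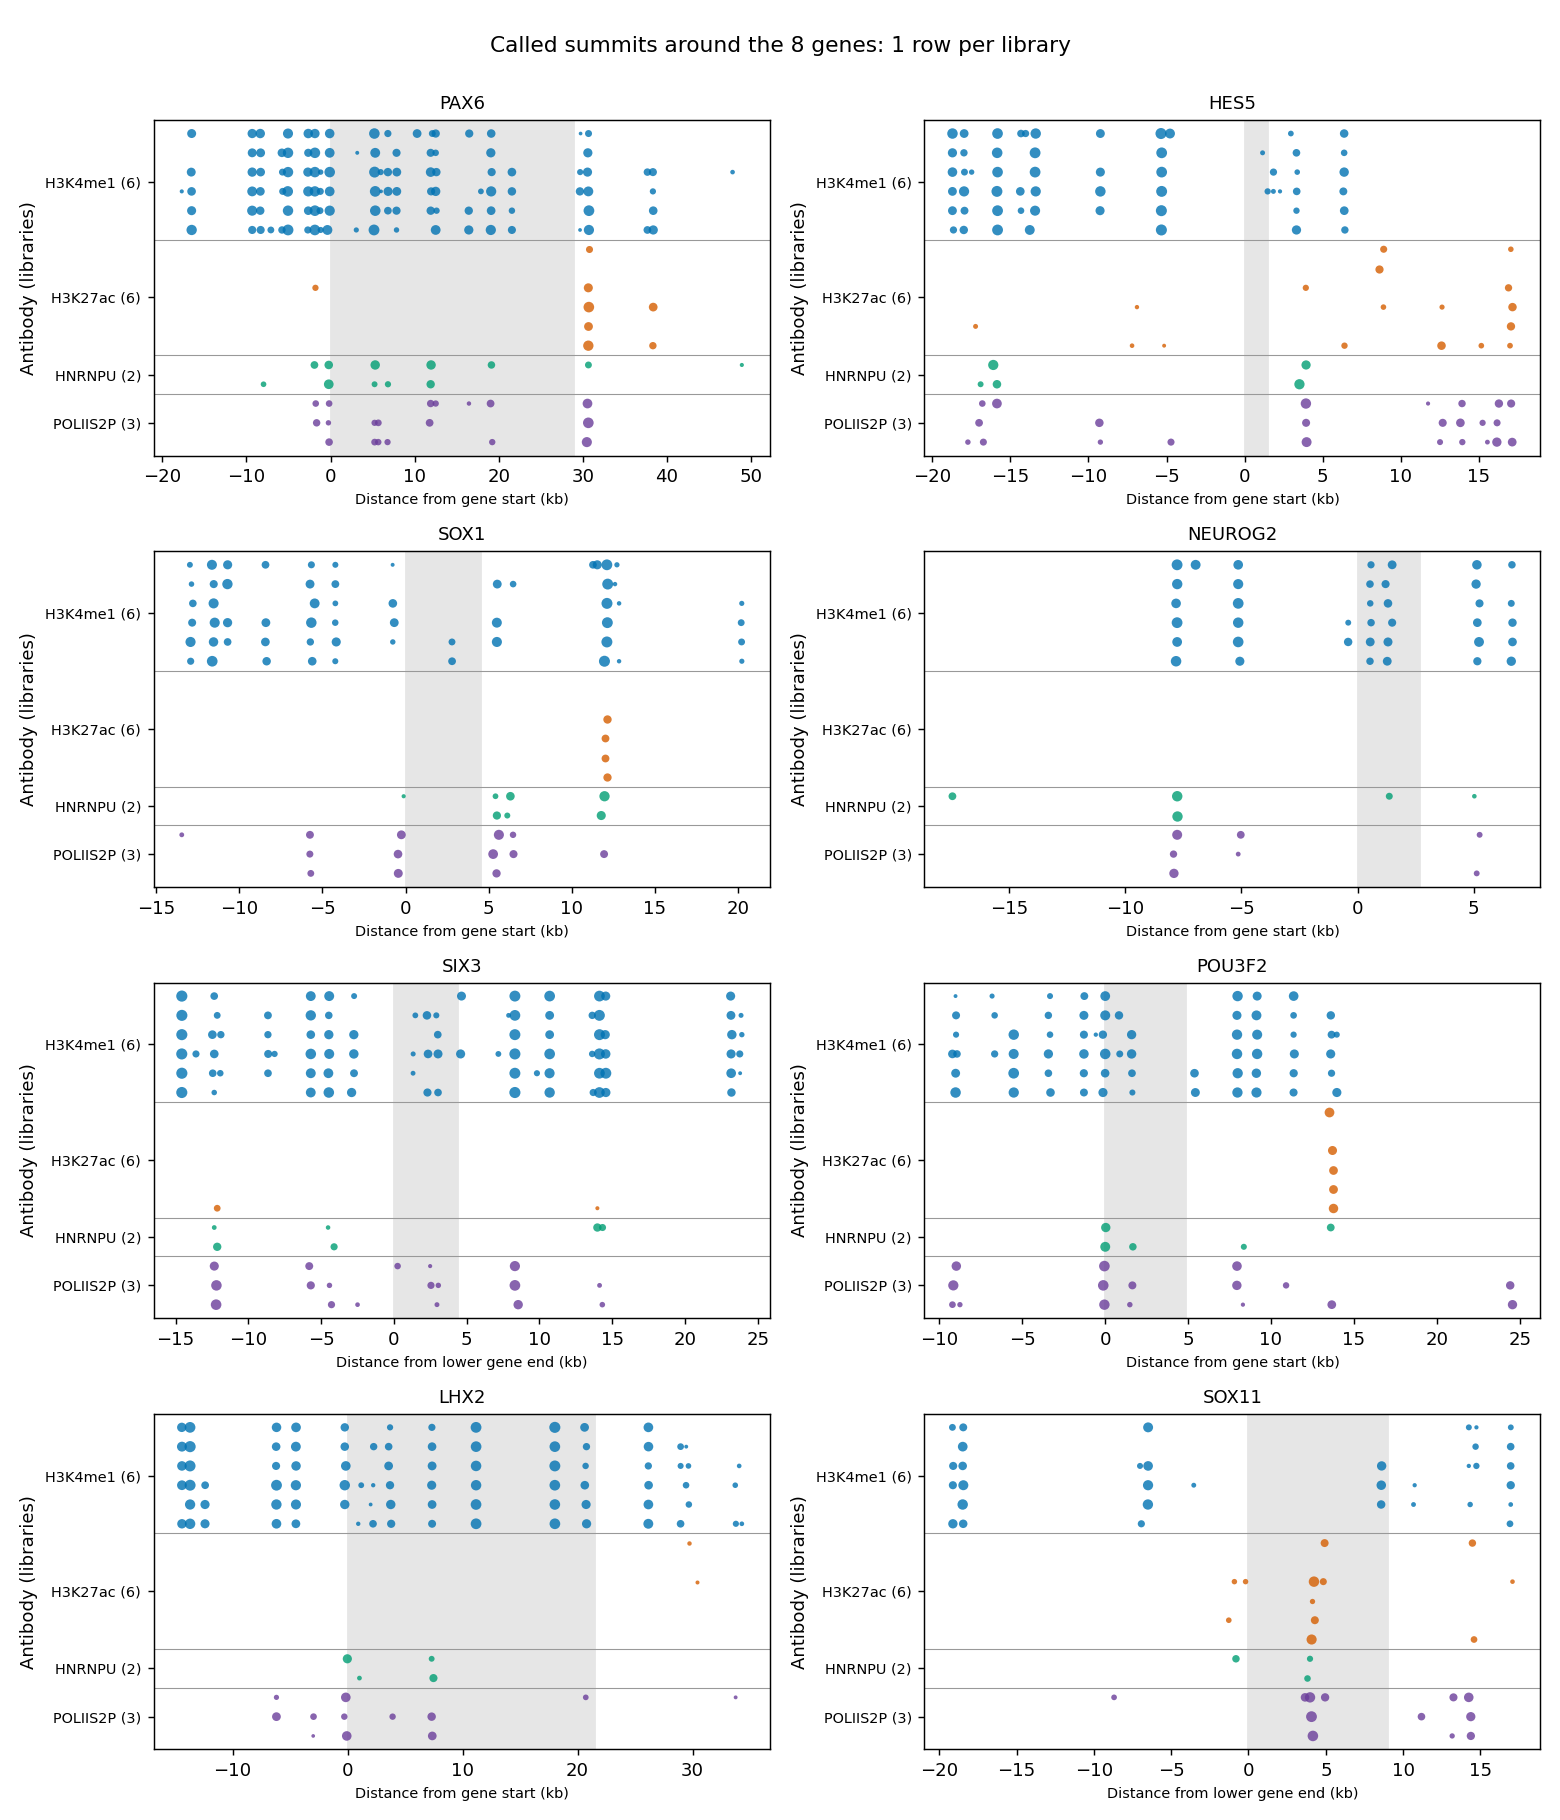
Every called summit around the 8 genes against its distance in kb from the gene start (from the lower gene end for SIX3 and SOX11), with 1 row per library grouped by antibody, in each group in the order shHNRNPU#1, shHNRNPU#2, shLUC; dot area grows with the within-list percentile, and grey marks the gene. Columns of H3K4me1 dots recur through the 6 libraries at all 8 genes, and H3K27ac dots recur at few positions, such as 30.7 kb at PAX6 and 13.6 kb at POU3F2.

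H3K27ac was confined to few places in these windows. The 6 libraries gave 27 sites, none present in all 6 (7.66% of sites genome-wide were), and 9 of them lay inside another protein-coding gene. The shHNRNPU#1 repeat 2 library had only 1 summit in the 8 windows, so at most 1 site could have been in all 6. HES5, PAX6 and POU3F2 each had a site that was present in all 5 other libraries. HES5 had 11 sites, 7 of them inside the neighbouring gene PANK4, which encodes a pantothenate kinase family protein. The best shared of these, chr1:2513118-2513372, had percentiles of 15.6, 35.6 and 51.3 in 3 shHNRNPU libraries and 49.3 and 17.4 in shLUC.

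Both H3K27ac sites of PAX6 that were seen in shLUC lay beyond its 3′ end inside ELP4, which encodes an Elongator subunit. At chr11:31787254-31787315 the percentiles were 32.3 in shHNRNPU#1 repeat 1, 60.2 and 87.4 in shHNRNPU#2 and 56.8 and 82.2 in shLUC. Only shHNRNPU#1 repeat 2 had no summit there, and the groups overlapped. The strongest POLIIS2P summits of the PAX6 window stood within 250 bp of this site, at 71.3 in shHNRNPU#1 and 87.9 and 77.9 in shLUC. A gene window of this kind cannot tell which gene a summit belongs to.

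POU3F2 had a single H3K27ac site, 13620 bp after its start at chr6:98848062-98848326. Its percentiles were 72.1, 60.2 and 55.5 in 3 shHNRNPU libraries and 56.8 and 67.1 in shLUC, again with no summit in shHNRNPU#1 repeat 2. The single SOX1 site, chr13:112079134-112079271, coincided with its strongest H3K4me1 site. It was called at 49.8 and 42.1 in shHNRNPU#2 and 42.3 and 48.7 in shLUC, and in neither shHNRNPU#1 library. SOX11 had the only sites inside a member's own gene, the more frequent at chr2:5696466-5696675 with 84.3 and 13.2 in shHNRNPU#2 and 44.6 and 78.6 in shLUC. SIX3 had H3K27ac in shLUC repeat 2 only, at 28.6, and LHX2 at 5.9 in shHNRNPU#1 repeat 1 and 2.7 in shHNRNPU#2 repeat 1.

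Gene starts were then examined in the 6 genes with a known strand. No H3K27ac library had a summit within 1 kb of the start of any of them, while 32.0% to 51.5% of 15843 protein-coding genes had. H3K4me1 lay within 1 kb of the start at PAX6, LHX2, NEUROG2 and POU3F2 in all 6 libraries and at SOX1 in 4, and at HES5 in none. That is 4 or 5 of the 6 genes a library, where 51.1% to 66.5% of all genes had one. The nearest H3K4me1 summit to the HES5 start was 1147 to 3317 bp away, and at POU3F2 it was 0 to 136 bp away. In all 3 POLIIS2P libraries PAX6, SOX1, LHX2 and POU3F2 had a summit within 1 kb, and HES5 and NEUROG2 had none, where 56.8% to 58.8% of genes had one.

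To ask whether these marks differed in cells with an shRNA against HNRNPU, the 4 shHNRNPU libraries were compared with the 2 shLUC libraries by two-sided exact permutation over 15 assignments. The smallest p this allows is 0.0667, so no gene could pass 0.05, and a gene was called separated when all 4 shHNRNPU values lay above, or all below, both shLUC values. LHX2 was the only separated gene for the H3K4me1 strongest percentile. Its values were 96.1, 97.6, 94.8 and 93.8 in shHNRNPU against 88.9 and 89.6 in shLUC. The mean was 95.6 ± 1.65 (SD, n = 4) against 89.3 ± 0.481 (SD, n = 2), a difference of 6.31 percentiles (exact permutation p = 0.0667, Benjamini-Hochberg adjusted p = 0.905 over 18872 genes). Of all genes tested, 7.1% were separated higher and 8.19% lower, and 1 gene of 8 is not read as a result about these genes.

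In 3 of the 4 shHNRNPU libraries the strongest LHX2 summit lay at chr9:123998066-123998072, 13699 bp before the start, a site with 89.8, 97.6, 94.8 and 93.8 in shHNRNPU and 81.2 and 84.4 in shLUC. The site holds the same summits as the comparison above and is no further support for it. In shHNRNPU#1 repeat 1 the strongest summit lay inside LHX2, 18021 bp after the start, and in shLUC it also lay inside the gene, 11169 and 11172 bp after the start. With a window of 5 kb the LHX2 difference was 2.32 and the groups overlapped. By limma on log2 scores it was 0.57 ± 0.23 (SE) with an adjusted p of 0.613.

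The other 7 genes overlapped between the groups, with mean differences from -4.90 percentiles at POU3F2 to 1.96 at NEUROG2. POU3F2 had 83.4, 76.5, 84.2 and 85.6 in shHNRNPU and 89.6 and 84.9 in shLUC. SIX3 was the steadiest, at 96.2 to 97.8 in shHNRNPU and 97.2 and 97.6 in shLUC. SOX11 spread most within shLUC, at 84.2 and 65.2, against 70.1 to 80.0 in shHNRNPU.

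**Figure D4:**
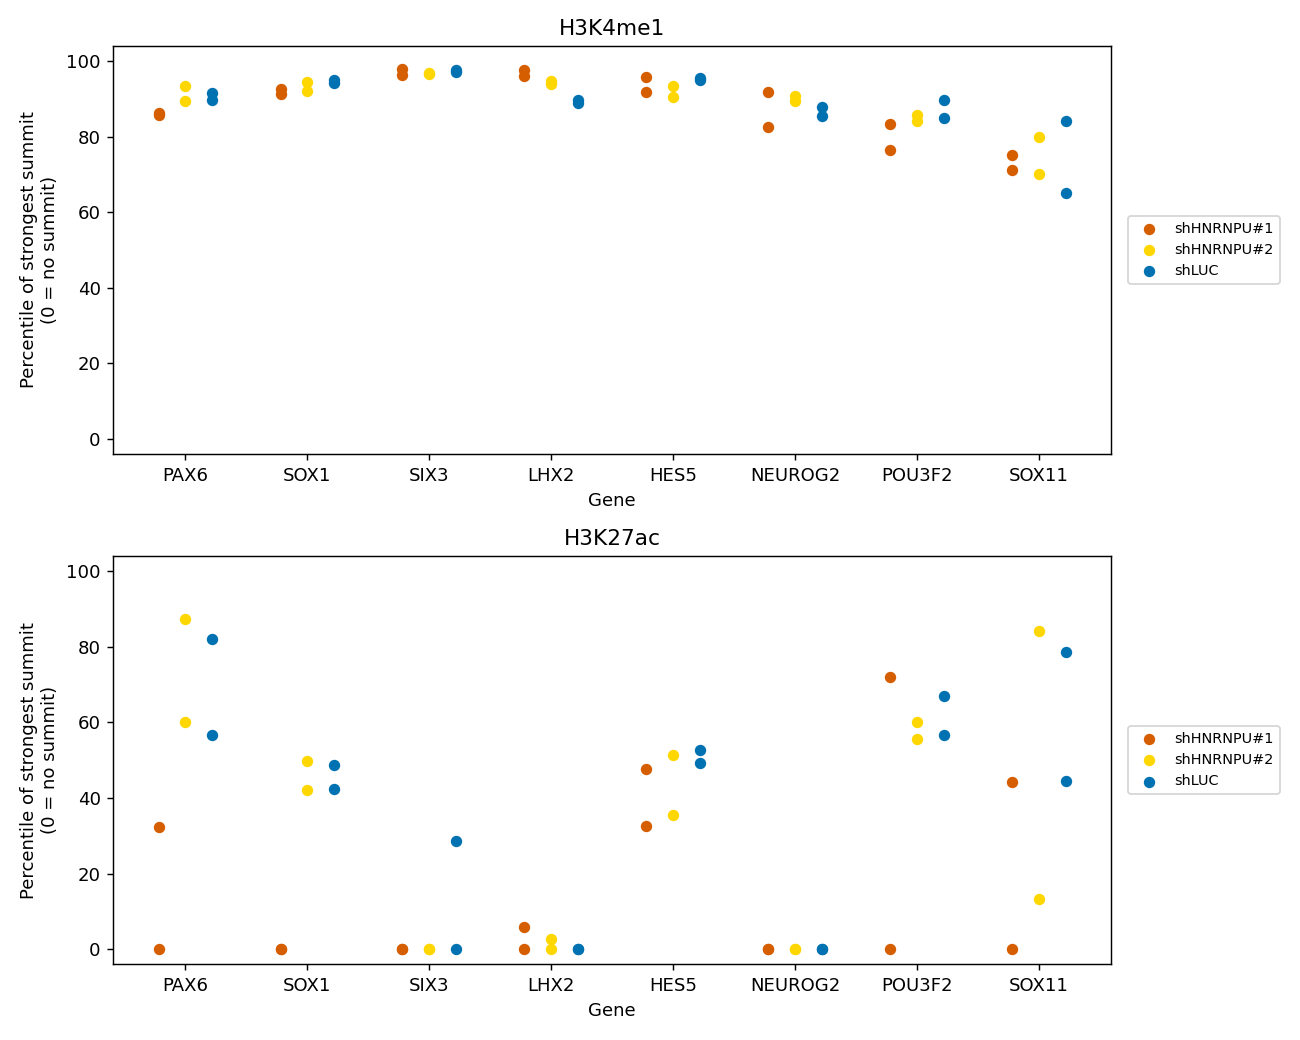
Within-list percentile of the strongest summit (0 where none was called) at each gene for H3K4me1 (upper panel) and H3K27ac (lower panel), 1 point per library, coloured by shRNA. At LHX2 the 4 shHNRNPU points for H3K4me1 (93.8 to 97.6) lie above both shLUC points (88.9 and 89.6), and at the other 7 genes the groups overlap for H3K4me1. For H3K27ac no gene is separated, and all points of NEUROG2 stand at 0.

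The number of H3K4me1 summits, per 100000 summits of the list, was separated at HES5 only. It was 7.48, 5.26, 5.73 and 5.60 in shHNRNPU and 5.02 and 3.86 in shLUC. All 4 shHNRNPU values were higher, with means of 6.02 ± 0.993 (SD, n = 4) and 4.44 ± 0.823 (SD, n = 2; exact permutation p = 0.133, adjusted p = 0.880). The background was 9.81% of genes higher and 6.41% lower. The separation was lost with a window of 50 kb, with the 40000 strongest summits and as titled. Another gene was separated in its place with 50 kb, SOX11 (higher, difference 2.10), and with the 40000 strongest summits, PAX6 (lower, difference -7.50).

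For H3K27ac none of the 8 genes was separated, in strongest percentile (background 2.07% higher and 11.4% lower) or in summits per 100000 (6.75% higher and 4.98% lower). Libraries without a summit fixed much of this in advance. NEUROG2 had no summit in any library and was not tested. In shHNRNPU#1 repeat 2 only HES5 had a summit, so no other gene could be separated higher. SIX3 and LHX2 had no summit in shLUC repeat 1, so they could not be separated lower either. By the exact permutation test 0 genes of the genome had an unadjusted p under 0.05 for either antibody, which the design fixes. By limma 0 genes passed an adjusted p of 0.05, with 1315 of 17538 genes for H3K4me1 and 812 of 13970 for H3K27ac at an unadjusted p under 0.05. The PAX6 percentiles were 32.3, 0, 60.2 and 87.4 in shHNRNPU and 56.8 and 82.2 in shLUC (difference -24.5, exact permutation p = 0.533). HES5 had 32.7, 47.6, 35.6 and 51.3 in shHNRNPU and 49.3 and 52.7 in shLUC (difference -9.19, exact permutation p = 0.200). In every library this strongest HES5 summit lay inside the neighbouring gene PANK4, and not always at the same site.

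Read as titled, the comparisons took another form. For H3K4me1, 7 of the 8 genes were separated with shHNRNPU higher, where 40.1% of all genes were, and for H3K27ac 7 of 8 were separated with shHNRNPU lower, where 44.3% of all genes were. These calls rest on which antibody the 4 shLUC libraries carried, which was not tested. The shLUC lists titled H3K4me1 held 62449 and 90914 summits and those titled H3K27ac 179137 and 181357. The shHNRNPU lists, where title and name agree, held 147145 to 214333 for H3K4me1 and 40487 to 85142 for H3K27ac.

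Condition-specific sites were also counted at these genes. Of the 136 H3K4me1 sites, 2 were present in both shLUC libraries and in no shHNRNPU library. In the other direction, 0 were present in all 4 shHNRNPU and in no shLUC library. The first lay 2799 bp after the SOX1 start at chr13:112069946-112069951, with 30.4 and 41.4 in shLUC. The second lay 5416 bp after the POU3F2 start, just past the gene, at chr6:98839964-98840017, with 53.9 and 58.4. Genome-wide 1.28% of H3K4me1 sites were lost and 0.577% gained by this rule, without a test. H3K27ac had 0 of either kind among 27 sites, and 1.93% were lost and 0.227% gained genome-wide. With so few sites, these counts are not read as a result about these genes.

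A wider list of 45 neural genes was examined by counts. For the H3K4me1 strongest percentile 4 were separated higher (EMX2, NEUROD4, DCX and ZNF521) and 4 lower (SOX2, which is also a pluripotency marker, HES6, POU3F1 and TUBB3), where 7.1% and 8.19% of all genes were. For H3K27ac 0 were higher and 2 lower (EMX1 and DLL3), where 2.07% and 11.4% of all genes were, and no gene of the list was separated in the same direction for both marks. For summits per 100000, 0 were higher and 4 lower in H3K4me1 (SOX9, PAX7, GBX2 and ZNF521), against 9.81% and 6.41% of all genes. In H3K27ac 1 was higher (PAX2) and 1 lower (SOX21), against 6.75% and 4.98%. Of the 45 genes, 45 had H3K4me1 in all 6 libraries (87.5% of all genes), 15 had H3K27ac in all 6 (69.7% of all genes) and 8 in none (7.31%). Their median H3K27ac percentile was 21.1, against 75.3 over all genes.

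HNRNPU was called at all 8 genes in untransfected cells. A site counted when summits of both repeats lay within 250 bp, and 12 such sites fell in the 8 windows, 3 at PAX6, 3 at SOX1 and 1 at each other gene. Over all protein-coding genes 70.0% had a site. With windows of 5 kb it was 5 of the 8 genes, where 58.8% of all genes had a site, and SIX3, HES5 and NEUROG2 had none.

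The strongest HNRNPU site was 7765 bp before NEUROG2, at chr4:112523945 in repeat 1 and chr4:112523950 in repeat 2, with percentiles of 84.2 and 82.9. It coincided with the strongest H3K4me1 site of the gene, and all 6 H3K4me1 and all 3 POLIIS2P libraries had a summit within 500 bp, while no H3K27ac library had. SOX1 had 81.3 and 61.1 at its site 11979 bp after the start, which was also its H3K27ac site. At POU3F2 the summits fell 39 and 7 bp after the start, at 65.0 and 75.0, just downstream of the printed bases. At PAX6 they fell 211 and 209 bp before the outermost start, at 52.8 and 70.6, within the capitals of the printed sequence. HES5 had its site 16092 bp before the start (80.3 and 52.4), and those of SIX3 (8.4 and 49.5), LHX2 (18.8 and 46.5) and SOX11 (22.2 and 26.5) were weaker in both repeats.

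Of the 12 HNRNPU sites, 8 (66.7%) had H3K4me1 within 500 bp in all 6 libraries, against 66.0% of all 17226 HNRNPU sites. H3K27ac was missing from all 6 libraries at 9 (75.0%), against 14.5% of all HNRNPU sites. The 8 windows held only 27 H3K27ac sites, with none at NEUROG2, so this share restates their low H3K27ac. The 3 sites with any H3K27ac were that of SOX1 with 4 libraries, that of SOX11 with 4 and that of SIX3 with 1. These shares are a description, without a test, and sites at the same gene are not independent.

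POLIIS2P was called at all 8 genes in all 3 libraries, as it was at 78.4% of all protein-coding genes. With 1 shHNRNPU#1 library no test was made. The strongest percentile was above both shLUC libraries at 5 genes (SOX1, LHX2, HES5, NEUROG2 and POU3F2) and below both at 3 (PAX6, SIX3 and SOX11), where 32.1% of genes were above and 39.5% below. NEUROG2 had 75.9 in shHNRNPU#1 and 35.8 and 64.8 in shLUC, and its shLUC repeats differed by more than the step from the higher of them to shHNRNPU#1. HES5 had 82.9 against 54.1 and 75.1, and SIX3 79.4 against 89.0 and 87.1. The strongest HES5 summits lay inside the neighbouring gene PANK4 in all 3 libraries. They stood 3921 bp after the HES5 start in shHNRNPU#1, and 13810 and 3965 bp after it in shLUC, so the libraries were not compared at the same site. LHX2 was nearly level, with 69.4 against 55.8 and 69.0. In summits per 100000, 4 genes (PAX6, SOX1, NEUROG2 and SOX11) were above both shLUC libraries and 2 (SIX3 and POU3F2) below both, with 43.5% and 26.4% of all genes. SOX11 had 7.50 against 3.43 and 3.51, and POU3F2 3.75 against 6.86 and 8.19, so the count at POU3F2 was lower while its strongest summit, at 87.6 against 86.4 and 83.2, was not.

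The genes with the most similar pattern were sought for the members with the highest and the lowest mean H3K27ac. Over the 17 libraries, the mean absolute difference in strongest percentile from PAX6 was smallest for DRC11L (5.68), F3 (6.04) and KIF6 (6.75), with a median of 22.7 over all genes. From NEUROG2 it was smallest for IRX5 (3.34), TBX3 (4.87) and PAX1 (5.18), with a median of 40.8.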

How the data were processed

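CUT&Tag libraries of H1 cells were analysed from 17 summit lists. Per the labels, the authors used cutadapt, Bowtie2, SAMtools, MACS2 and deepTools with build hg38, and versions are not given in the sources used here. The deposited score of each summit was taken to be a −log10 significance, as MACS2 writes it, since the lowest was 2.00 to 2.01 in the 12 histone lists and 1.30 in the 5 HNRNPU and POLIIS2P lists, so the lists follow different thresholds. A further deposited list of 48095 HNRNPU intervals carries a score of 0 and gave positions only. The paper listed with the series describes another experiment, so its methods were not used.

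Scores were compared only as ranks within their own list, because depth is unknown and longer lists reach weaker peaks. Genes and promoters came from RefSeq GRCh38.p14, and promoters of 6 of the 8 genes were matched. The strongest within-list percentile (0 without a summit) and the summits per 100000 were computed for every protein-coding gene with Python 3.11.15, numpy 2.4.6 and pandas 2.3.3. The test was a two-sided exact permutation test with Benjamini-Hochberg adjustment over all genes tested, and limma 3.58.1 on log2 scores, quantile normalised, was an alternative. Scripts were tested on simulated data. Groups follow the titles for shRNA and the names in the lists for the antibody of the 4 shLUC histone libraries. All 8 genes were named, and sites by highest mean percentile or by being condition-specific. The genes, lists and tests were chosen with earlier results of these data known.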

Additional observations from a re-analysis of the deposited data

Results flagged for a closer look

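Of 28 groups of 4 shHNRNPU libraries examined, 1 held a library far from the others, and chance flags about 5% of groups. It was NEUROG2, H3K4me1 summits per 100000, where shHNRNPU#1 repeat 1 had 4.76 and the other 3 libraries 3.27 to 3.44.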

How the results depend on the processing

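With a single rank per summit and no depth, small differences between lists of unequal length cannot be resolved. Counts of separated genes of 8 are given in the order H3K4me1 strongest percentile (1), H3K4me1 summits (1), H3K27ac strongest percentile (0) and H3K27ac summits (0). As titled they were 7, 6, 7 and 6, and condition-specific sites became 51 for H3K4me1 (49 gained, 2 lost) and 63 for H3K27ac, all lost. At genes separated as titled, the differences turned direction for the H3K4me1 strongest percentile at PAX6 (19.1), SOX1 (47.1), SIX3 (82.6), HES5 (41.9) and POU3F2 (20.4), for H3K4me1 summits at PAX6 (8.83), and at LHX2 for the H3K27ac strongest percentile (-87.1) and summits (-7.22). SOX11 turned without being separated, with a mean H3K4me1 strongest percentile of 74.1 in shHNRNPU against 61.6 in shLUC as titled and 74.7 by the names in the lists. With shHNRNPU#1 alone, 4 genes were separated for the H3K4me1 and 4 for the H3K27ac strongest percentile, and 1 for H3K27ac summits. With shHNRNPU#2 alone, 4 were separated for the H3K4me1 strongest percentile, 2 for H3K4me1 summits and 1 for H3K27ac summits. Of the separated genes, SOX1 (-0.928, H3K4me1 summits) and PAX6 (0.603, H3K27ac summits) turned direction. Genes that were not separated turned too, and these are not all listed. For the H3K27ac strongest percentile they were PAX6 (60.2 and 87.4 against 56.8 and 82.2 in shLUC) and SOX1 (49.8 and 42.1 against 42.3 and 48.7). These smaller groups separate more easily by construction. For separated genes and condition-specific sites, shares over all genes or sites were computed only for the main setting and the strongest percentile as titled. Without such shares, the other counts here are not read as results. A 5 kb window left 0 genes for the H3K4me1 strongest percentile, a 50 kb window gave 1 for H3K27ac summits, and limma called 0 of 8 genes for H3K4me1 and 0 of 1 for H3K27ac, where only HES5 had a summit in all 6 libraries. For H3K4me1 summits the count stayed at 1 with another gene, SOX11 with 50 kb and PAX6, lower, with the 40000 strongest summits. Leaving out each library in turn gave 2 to 3, 1 to 2, 0 to 2 and 0 to 2 separated genes, with the count moved by every library for the H3K4me1 strongest percentile, by either shLUC library for both summit measures (2 and 2 for H3K4me1, 2 without repeat 1 and 1 without repeat 2 for H3K27ac), and for the H3K27ac strongest percentile by shHNRNPU#2 repeat 1 (2 without it), shHNRNPU#2 repeat 2 (1) and shLUC repeat 1 (2), and the SOX11 difference in H3K4me1 strongest percentile ran from -10.2 without shLUC repeat 2 to 8.93 without shLUC repeat 1, a turn in direction. With the 40000 strongest summits 1 H3K4me1 site was lost. HNRNPU sites were at 5 genes with a 5 kb window. Leaving out H3K27ac shHNRNPU#1 repeat 2, chosen after seeing the data, raised the genes with H3K27ac in every library from 1 to 4. Groups with a library left out also separate more easily by construction. Where no construction is named, the cause was not tested.

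The repeat numbers did not pair the libraries, with correlations of repeat differences from -0.02 to 0.03 over genes. The replicate block gave 1, 1, 1 and 0 separated genes, with a smallest p of 0.111.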
